A study of Rattus norvegicus with 25 samples.

Results

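The genes described here are Rarres2, which encodes the secreted protein chemerin, its receptor gene Cmklr1, and 8 genes known for strong expression in the leptomeninges: Dcn, Lum, Ogn, Igf2, Igfbp2, Slc6a13, Aldh1a2 and Ptgds. They were taken by gene name, and the 10 names were found in both regions among 26312 gene identifiers, with 2 gene models for Ogn. Rarres2 was selected on its difference between the stress groups of the basolateral amygdala (BLA), so that difference is given below as a description, without a test. The other genes were added to ask whether it goes along with the amount of meningeal or vascular tissue in the punches.

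RNA was measured in adult male wild-type Sprague-Dawley rats. Stress-exposed rats underwent 3 h of immobilization together with predator scent, and control rats did not receive the stressor. All groups went through the same later behavioral tests. Stress-low and stress-high rats both received the stressor and were picked from the low and the high end of a later score of anxiety-like behavior. The library names of the controls also say low or high. Per the methods the controls came from across the range of that score, and they are pooled here. On day 9 after stress, punches of 0.75 mm were taken from 200 µm sections of the left BLA and the left dorsal dentate gyrus (DG). The BLA gave 6 control, 3 stress-low and 3 stress-high libraries, and the DG gave 5, 3 and 3. The control that lay farthest out on the first principal component was left out in each region (BLA animal 2 and DG animal 35) and is given separately. The labels of the BLA library of animal 35 conflict: its library name says control and its treatment field says stress. It was kept as a control. Each library comes from 1 animal. All stress-high animals have a number of 20 or less and all stress-low animals a higher one, so any difference tied to the order of the numbers cannot be told apart from the group. Marker genes matched the regions in part. Prox1 and C1ql2 of granule cells averaged 75.6 and 344 TPM (transcript abundance scaled to a fixed sum per library) in DG libraries, against 2.52 and 2.78 TPM in BLA libraries. Of the 3 genes listed for the BLA, Etv1 had 107 TPM in the BLA and 9.76 in the DG. Neurod6 (111 and 151 TPM) and Rspo2 (12 and 18.6 TPM) were not higher in the BLA. The 2 sets of libraries were quantified differently, as given below, so these values are a rough check.

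Chemerin is made as an inactive precursor, is trimmed by proteases, and then acts on Cmklr1, a receptor of macrophages and other leukocytes. Rarres2 stands for retinoic acid receptor responder, and Aldh1a2 makes retinoic acid. The leptomeninges are the thin membranes on the brain surface that also follow vessels and fissures inward. Their fibroblasts make matrix proteoglycans (Dcn, Lum, Ogn), the growth factor Igf2 and its binding protein Igfbp2, the GABA and taurine transporter Slc6a13, and Ptgds, which oligodendrocytes also express.

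Promoter sequences were found in RefSeq (GRCr8) for 8 of the 10 genes. The AGGTCA half-site, which nuclear receptors including the retinoic acid receptors bind, was searched on both strands in the 250 bases before each start. It was found for Rarres2 and Ptgds and in 14.1% of all 33469 promoters. The 28 bases around it are shown for these 2 genes, 5′ to 3′ on the gene's strand, with the motif in capitals as it reads there (TGACCT is its reverse complement). The Rarres2 stretch is chr4:78856535-78856562 and the Ptgds stretch chr3:28683201-28683228, both on the minus strand.
Rarres2: aatcaagaggaAGGTCAgggaactttgg
Ptgds: ccctgccctgcTGACCTgcccctgcccg
The motif begins 143 bases before the start that the promoter table gives for Rarres2 and 239 bases before that of Ptgds. The RefSeq gene record of Rarres2 reaches to base 78856652, so its stretch lies upstream of one annotated start and inside a longer gene model. A match of these letters is a description of the sequence and says nothing about binding in this tissue.

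In the BLA, Rarres2 was lower in stress-high than in stress-low rats, with controls between them. The stress-low libraries of animals 22, 30 and 34 had 54.23, 48.34 and 49.13 TPM, and the stress-high libraries of animals 7, 19 and 20 had 27.74, 27.4 and 38.59 TPM. The 6 controls ran from 28.67 to 52.96 TPM with a median of 42.8, and so covered nearly the whole range of both stress groups. The means were 50.6 ± 3.20 TPM in stress-low (SD, n = 3), 31.2 ± 6.36 in stress-high (SD, n = 3) and 41.1 ± 8.76 in controls (SD, n = 6). The log2 change from stress-low to stress-high was -0.66 with a standard error (SE) of 0.20. Against controls it was 0.25 (SE 0.17) in stress-low and -0.41 (SE 0.18) in stress-high rats. The stress groups did not overlap, which held for 5.89% of the 15230 genes tested in the BLA. Without the control of animal 35, the change between the stress groups was -0.659 (SE 0.205) and that of stress-low against control 0.255 (SE 0.18). With a covariate for an animal number above 20 the change between the stress groups was -0.60 (SE 0.30). Among the stressed rats this covariate equals the group. It was therefore fitted on the controls alone and does not separate number from group. Controls of the lower numbers 14 and 17 had 45.85 and 33.49 TPM, and those of the higher numbers 27, 28, 32 and 35 had 28.67, 52.96, 43.86 and 41.78 TPM.

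Rarres2 shares its locus with Lrrc61, a gene that it overlaps in the RefSeq annotation, and its expected counts in the BLA were not whole numbers, so some reads were divided between gene models. Lrrc61 had 10.27, 11.75 and 8.92 TPM in stress-low and 8.73, 10.54 and 9.95 TPM in stress-high rats. These ranges overlap.

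**Figure D1:**
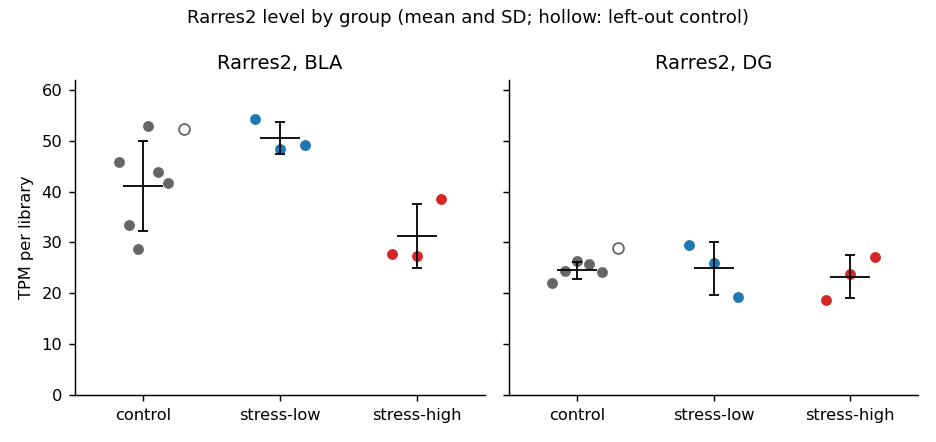
TPM of Rarres2 (y axis) in each library of the BLA (left) and the DG (right) by group, with the mean and SD of the libraries used; the hollow point is the control left out. In the BLA the 3 stress-low libraries (48.34 to 54.23 TPM) lie above the 3 stress-high libraries (27.4 to 38.59 TPM), and in the DG the groups overlap.

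In the DG the Rarres2 groups overlapped. Stress-low animals 22, 33 and 34 had 29.52, 26.04 and 19.24 TPM, stress-high animals 7, 19 and 20 had 18.74, 23.77 and 27.16 TPM, and the 5 controls had 21.92 to 26.35 TPM with a median of 24.3. The log2 change from stress-low to stress-high was -0.10 (SE 0.17), with a 95% interval of -0.46 to 0.27 and an adjusted p of 1 (edgeR, 14080 genes). The changes in both regions came from partly the same animals. The DG minus BLA difference of the change was 0.58 (SE 0.28) on the log2 scale. It uses the BLA difference that Rarres2 was selected on and is given without a test. Rarres2 levels were not compared between the regions, since the 2 sets of libraries were quantified differently. The effective gene length was 50 bases shorter than the gene in the BLA and 264 to 270 bases shorter in the DG.

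No gene of the whole table passed an adjusted p of 0.05 (edgeR's quasi-likelihood test) in any of the 6 comparisons, which is 0% called. At an unadjusted p under 0.05, 302 BLA genes (1.98%) differed between stress-high and stress-low, 419 (2.75%) between stress-low and control and 392 (2.57%) between stress-high and control. In the DG these were 440 (3.12%), 972 (6.9%) and 309 (2.19%) genes. DESeq2 made 1, 1 and 2 adjusted calls in these BLA comparisons, and in those of the DG 4, 5 and 1, none of them one of the 10 genes.

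Of the 9 genes other than Rarres2, each with 1 tested model in the BLA, 5 had negative and 4 positive changes between the stress groups. Their median change was -0.10 on the log2 scale, beside 0.00 for all genes, and 1 of them, Igf2, had an unadjusted p under 0.05. The stress groups overlapped for all 9 in the BLA. In the DG, 8 of them were tested, since neither Ogn model passed the filter on low counts. Of the 8, 5 had negative and 3 positive changes with a median of -0.09, and 1 of them, Dcn, had an unadjusted p under 0.05.

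**Figure D2:**
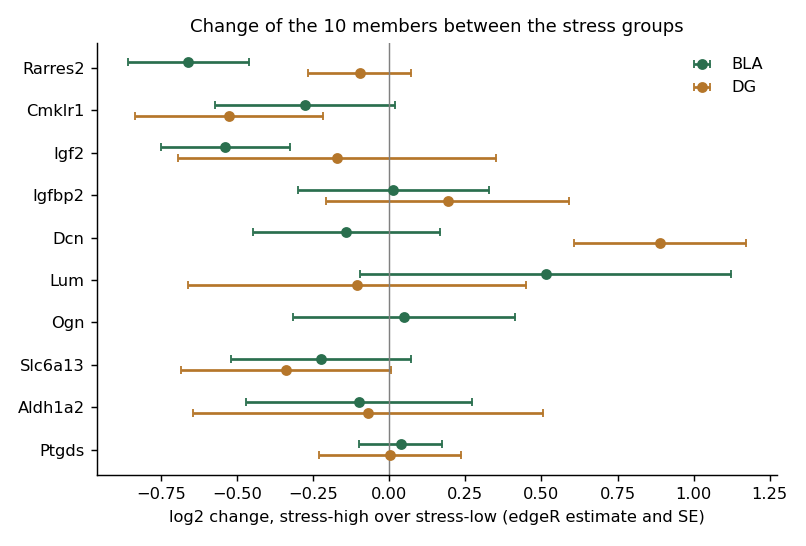
Log2 change from stress-low to stress-high (x axis; edgeR estimate with SE as bars) for the 10 genes in the BLA and the DG; Ogn was not tested in the DG. Rarres2 was selected on its BLA change (-0.66), which is therefore not ranked. Among the other points, Igf2 in the BLA (-0.54) and Dcn in the DG (0.89) lie farthest from 0 relative to their SE.

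The chemerin receptor was scarce. Cmklr1 had 0.94, 1 and 1.16 TPM in BLA stress-low and 0.68, 0.68 and 1.17 TPM in BLA stress-high rats, from 16 to 33 expected counts, and these ranges overlap. Its log2 change was -0.28 (SE 0.30, edgeR adjusted p = 1), and -0.488 without stress-high animal 20 or -0.147 without stress-low animal 34. In the DG its stress groups did not overlap, at 0.69, 0.74 and 0.82 TPM in stress-low and 0.49, 0.58 and 0.46 TPM in stress-high rats. This rests on 12 to 17 counts a library, and the smallest two-sided p that an exact permutation of 3 against 3 libraries can give is 0.1, which it reached. The edgeR change was -0.53 with a 95% interval of -1.19 to 0.13 (adjusted p = 1). In all, 2 of the 8 other genes tested in the DG had stress groups apart (Cmklr1 and Dcn), beside 8.69% of the 14080 genes tested.

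Among the genes that bind or process chemerin, 3 of the 10 listed passed the low-count filter in each region and none had an unadjusted p under 0.05 between the stress groups. Ctsk, a cathepsin that can trim chemerin, differed between stress-high and control in the DG by -0.51 (SE 0.23, unadjusted p = 0.041, adjusted p = 1, edgeR).

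Of the growth factor genes, Igf2 came nearest to Rarres2 in the BLA. It had 6.46, 7.57 and 5.33 TPM in stress-low and 3.2, 3.81 and 6.17 TPM in stress-high rats, and animal 20 of the stress-high group lay within the stress-low range. Controls had 3.75 to 6.55 TPM with a median of 5.21. The log2 change was -0.54 (SE 0.21, 95% interval -0.99 to -0.09), with an unadjusted p of 0.023 and an adjusted p of 1 (edgeR). Without stress-high animal 7 or 19 or stress-low animal 30 the unadjusted edgeR p was 0.109, 0.0712 and 0.0795. With the covariate for an animal number above 20, which only the controls inform, the change was -0.928 (SE 0.28). In the DG, Igf2 varied within groups, from 1.63 to 9.71 TPM in controls, 1.74 to 6.83 in stress-low and 2.36 to 5.11 in stress-high rats, and its change was -0.17 (SE 0.52). Igfbp2, which binds insulin-like growth factors, had 4.22, 10.54 and 3.99 TPM in BLA stress-low and 4.24, 8.55 and 5.78 TPM in BLA stress-high rats, with a change of 0.01 (SE 0.31). Over the list of 13 genes of insulin-like growth factor signaling, 1 had an unadjusted p under 0.05 between the stress groups in the BLA (Igf2, negative) and 0 in the DG, and 0 passed adjustment. The list had a median change of -0.01 (BLA) and 0.06 (DG). Against controls, Irs2 was lower in BLA stress-low rats (-0.16, SE 0.07, unadjusted p = 0.025, edgeR). Insr was higher in DG stress-low rats (0.15, SE 0.07, unadjusted p = 0.0495, edgeR). Neither passed adjustment.

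Of the matrix proteoglycans, Dcn (decorin) differed most between the DG stress groups. It had 1.73, 1.32 and 1.28 TPM in stress-low and 2.62, 3.45 and 1.97 TPM in stress-high rats, with controls from 1.52 to 2.56 TPM (median 2.07). The stress groups did not overlap, and the controls overlapped both. The log2 change was 0.89 (SE 0.28, 95% interval 0.28 to 1.5, unadjusted p = 0.0075, adjusted p = 1, edgeR), on 13 to 60 counts a library. Without stress-high animal 19 it was 0.649 (SE 0.30, unadjusted p = 0.0516, edgeR). In the BLA the means were 5.56 ± 0.644 TPM in stress-low (SD, n = 3) and 4.89 ± 1.25 in stress-high (SD, n = 3), a change of -0.14 (SE 0.31). The DG minus BLA difference for Dcn was 1.05 (SE 0.45, unadjusted p = 0.029, adjusted p = 1, edgeR), where 309 of 15450 genes (2%) had an unadjusted p under 0.05 and 0 (0%) passed adjustment. This fit treated libraries of the same animal as independent. With an animal block over 18 libraries the Dcn difference was 1.09 (SE 0.37, unadjusted p = 0.0122, edgeR). There 537 of 15560 genes had an unadjusted p under 0.05 and 0 passed adjustment. Lum (lumican) was set by single libraries in the BLA: the stress-high animals 7, 19 and 20 had 3.16, 7.64 and 0.96 TPM, beside 2.35, 4.11 and 2.1 TPM in stress-low rats. Its change of 0.51 (SE 0.61) became -0.33 without animal 19. Ogn (osteoglycin) had at most 1.75 TPM in any BLA library used for the first of its models and 1.95 TPM for the second, and reads were divided between them. Of 10 small leucine-rich proteoglycan genes, 6 were tested in the BLA, with a median change of 0.06 and none with an unadjusted p under 0.05, and 5 in the DG, with a median of 0.02 and Dcn alone under that p.

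Ptgds, which makes prostaglandin D, was the most abundant of the 10 genes. It had 112.34, 159.51 and 121.11 TPM in BLA stress-low and 144.28, 125.97 and 116.18 TPM in BLA stress-high rats. These overlap, and the change was 0.04 (SE 0.14, 95% interval -0.26 to 0.33, adjusted p = 1, edgeR). In the DG the means were 120 ± 17.7 TPM in stress-low (SD, n = 3), 119 ± 14.4 in stress-high (SD, n = 3) and 123 ± 41.3 in controls (SD, n = 5). Of 6 oligodendrocyte marker genes, 5 had negative changes in the BLA and all 6 in the DG, with medians of -0.06 and -0.07 and none at an unadjusted p under 0.05. Slc6a13 had changes of -0.23 (SE 0.30) in the BLA and -0.34 (SE 0.35) in the DG, and Aldh1a2 of -0.10 (SE 0.37) and -0.07 (SE 0.57). Leaving out 1 library moved Slc6a13 to -0.035 in the BLA (stress-high animal 20) and to -0.111 in the DG (stress-low animal 33). Both were at 2.25 TPM or less in every library. Of 19 retinoic acid genes, 18 were tested in the BLA and 16 in the DG, and 0 had an unadjusted p under 0.05 between the stress groups, with medians of -0.05 and 0.05. Against controls, Stra6 was lower in BLA stress-low rats (-0.97, SE 0.39, unadjusted p = 0.025, edgeR). Rarg was lower in DG stress-low (-0.38, SE 0.15, unadjusted p = 0.023) and stress-high rats (-0.34, SE 0.14, unadjusted p = 0.033), which share their controls. None of the list passed adjustment. No listed gene of GABA and taurine transport (4 tested per region) or of prostaglandin D (5 and 4 tested) was under that p between the stress groups.

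**Figure D3:**
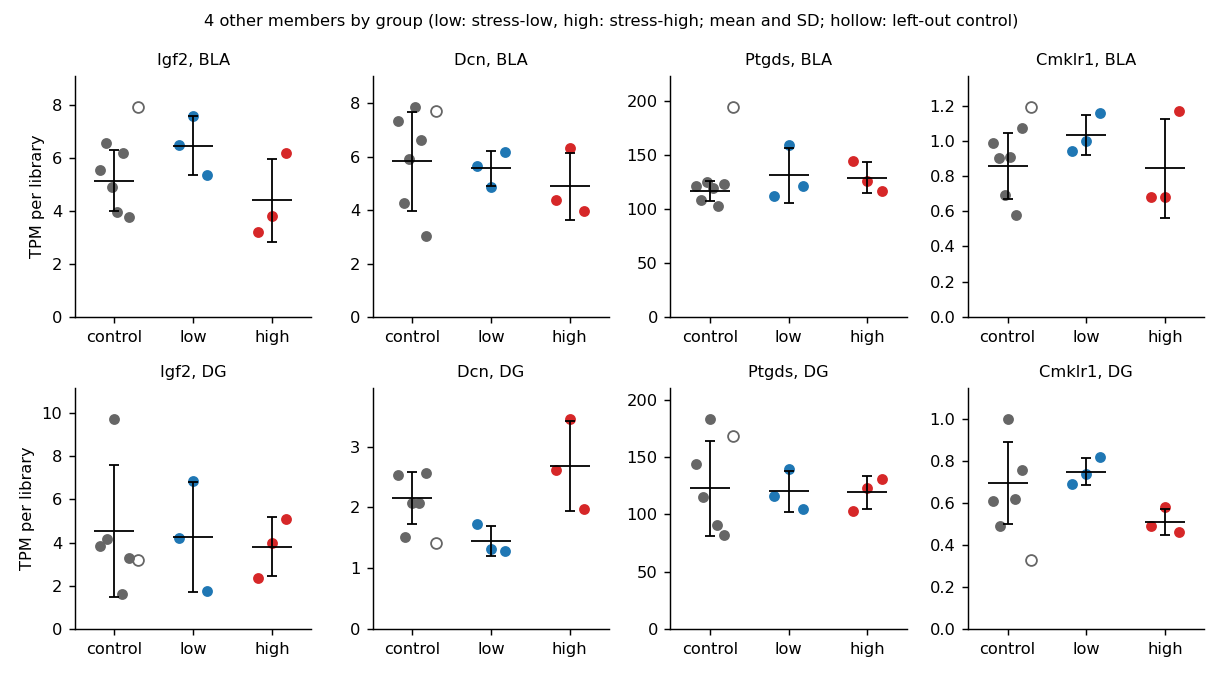
TPM (y axes, each from 0) of Igf2, Dcn, Ptgds and Cmklr1 in each library of the BLA (top) and the DG (bottom) by group, with mean and SD; hollow points are the controls left out. Stress-low and stress-high points are apart for Dcn and Cmklr1 in the DG only, and overlap in the other 6 panels.

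The question of tissue share was addressed with 5 marker lists that hold none of the 10 genes. Their level was the summed TPM of their genes in a library. The leptomeningeal list (15 genes, led by Fbln1, Fmod and Slc6a20 at 5.47, 4.13 and 3.67 mean TPM in the BLA) overlapped between the BLA stress groups, unlike Rarres2. It summed to 24.1, 35.6 and 24.8 TPM in stress-low animals 22, 30 and 34, and to 22.2, 27.6 and 36.4 TPM in stress-high animals 7, 19 and 20. Controls ran from 22.9 to 44.1 TPM. Of its 13 tested genes, 6 had positive and 7 negative changes between the stress groups, with a median of -0.04, and 0 had an unadjusted p under 0.05. With the list's level as a covariate, the Rarres2 change in the BLA was -0.65 (SE 0.20), beside -0.66 without it.

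In the stress-low group animal 30 had the highest list level and the lowest Rarres2, and in the stress-high group animal 20 had the highest of both. Across the 12 BLA libraries, log2 levels of Rarres2 and the list had a Pearson r of 0.02 (permutation p = 0.95) and a Spearman rho of -0.13 (permutation p = 0.68), and r was -0.002 without the 2 libraries farthest from the median list level and -0.02 without the control of animal 35. Among the 6 controls alone r was -0.19 (exact permutation p = 0.71). In the control left out, the leptomeningeal list summed to 120 TPM, with Col1a1 at 36.6 TPM beside at most 7.42 in the others, and its Rarres2 was 52.24 TPM, within the range of the other controls.

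**Figure D4:**
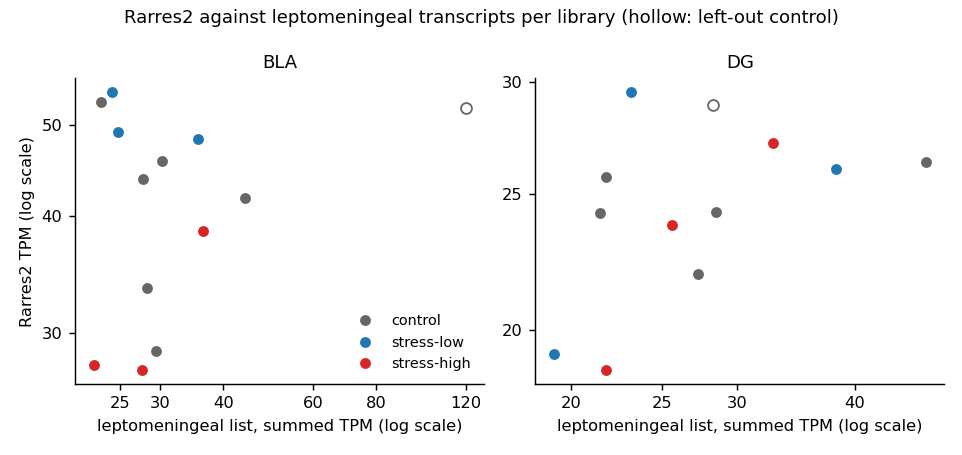
Rarres2 TPM (y axis, log scale) against the summed TPM of the leptomeningeal list (x axis, log scale) in each library of the BLA (left) and the DG (right), colored by group; hollow points are the controls left out. In the BLA the stress-low and stress-high points are apart in Rarres2 and overlap along the list (24.1 to 35.6 and 22.2 to 36.4 TPM), and the left-out control lies far right at 120 TPM.

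The vascular lists also overlapped between the BLA stress groups. The endothelial list (Slco1c1 40.7, Cldn5 39.1 and Flt1 12.2 mean TPM) summed to 120 to 154 TPM in stress-low and 107 to 153 TPM in stress-high rats, and its r with Rarres2 was 0.01 (permutation p = 0.97, Spearman rho -0.12, p = 0.72). The mural list of pericytes and smooth muscle (Rgs5 75.8, Vtn 14.1 and Tagln 9.69 mean TPM) summed to 92.2 to 132 and 94.9 to 128 TPM, and its r was 0.11 (permutation p = 0.73, rho 0.13, p = 0.68). Without the 2 farthest libraries the r values were -0.25 and 0.17.

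The choroid plexus list had almost no signal, with Ttr and Otx2 at 0 in every BLA library used and sums of 3.06 to 5.45 TPM. Most of that was Kcne2, at a mean of 2.53 TPM. Its r with Rarres2 was 0.34 (permutation p = 0.27, rho 0.32, p = 0.31), and 0.14 without the 2 farthest libraries. The ependymal list was led by Enkur (19.2 mean TPM), Rsph1 (9) and Dynlrb2 (1.86), and Enkur and Rsph1 made up most of it. Foxj1 was not found, and Tmem212 had at most 0.64 TPM in the BLA libraries used. The list summed to 34.7 to 39.3 TPM in stress-low and 32.5 to 34.8 TPM in stress-high rats, so the groups overlapped only at the edge. Its sum in controls ran from 26.8 to 38.6 TPM. Its r was 0.15 (permutation p = 0.65, rho 0.33, p = 0.30), and 0.46 without the 2 farthest libraries (permutation p = 0.17). One of its 6 tested genes, Hydin, a component of motile cilia that is named here because of its values, had stress groups that did not overlap. It had 2.97, 1.4 and 2.69 TPM in stress-low and 0.99, 0.82 and 1.13 TPM in stress-high rats of the BLA, with controls from 0.9 to 2.09 TPM, and a log2 change of -1.22 (SE 0.31, unadjusted p = 0.0013, adjusted p = 1, edgeR). Enkur overlapped, at 16.9 to 20.8 and 17.9 to 19.6 TPM. The part of ependymal transcripts in the Rarres2 difference was not tested. In bulk tissue, fewer cells of a type and less RNA per cell cannot be told apart.

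In the DG, Rarres2 had an r of 0.48 with the leptomeningeal list (permutation p = 0.13, rho 0.58, p = 0.065) and 0.44 with the endothelial list (permutation p = 0.18, rho 0.40, p = 0.23), over 11 libraries. Without the 2 farthest libraries the first was 0.44 (exact permutation p = 0.24) and the second 0.07 (exact permutation p = 0.87). The r values were 0.15 for the mural, 0.08 for the ependymal and -0.22 for the choroid plexus list. Enkur also led the ependymal list in the DG, at 8.5 mean TPM. The DG stress groups of the list did not overlap, with 13.6 to 16 TPM in stress-low and 16.5 to 17.3 TPM in stress-high rats. This was the opposite order to the BLA, and controls of the list ran from 11.1 to 18.2 TPM. Of its 5 tested genes, 4 had positive changes, and Hydin, the 1 with an unadjusted p under 0.05, had a negative one of -0.69 (SE 0.31, unadjusted p = 0.040, adjusted p = 1, edgeR). With 1 library left out at a time, the leptomeningeal r was 0.339 to 0.655. The highest was without the stress-low library of animal 22 (permutation p = 0.0395, adjusted p = 0.198). Its rho was 0.758 (permutation p = 0.0149, adjusted p = 0.0744). These adjusted values cover only the 5 lists of the DG, not the 10 relations of both regions. The endothelial rho was 0.645 centred on group means (permutation p = 0.0378, adjusted p = 0.279) and 0.618 with z-scored genes (permutation p = 0.0475, adjusted p = 0.475). Over the 10 relations of both regions, the lowest adjusted permutation p was 0.899 for r and 0.648 for rho. The DG list summed to 19.2 to 38.2 TPM in stress-low, 21.8 to 32.8 in stress-high and 21.5 to 47.6 in control rats, and 8 of its 13 tested genes had positive changes between the stress groups, with none at an unadjusted p under 0.05. At 12 and 11 libraries a moderate relation can go unseen, so these values do not show that the levels are unrelated.

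**Figure D5:**
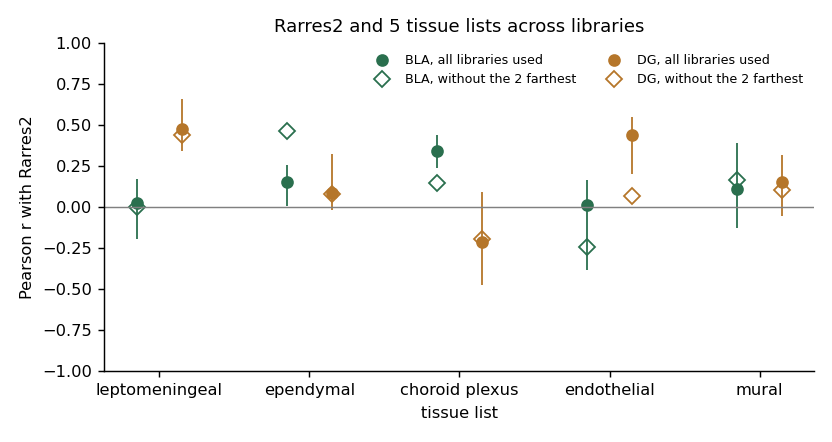
Pearson r (y axis) between Rarres2 and each of 5 tissue lists (x axis) across the BLA and the DG libraries used; filled circles use all these libraries, open diamonds leave out the 2 farthest from the median list level, and lines span the values when 1 library is left out. The leptomeningeal circle lies at 0.02 in the BLA and at 0.48 in the DG.

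Among the 28 pairs of the 8 leptomeningeal genes the median r was 0.60 over 11 DG libraries, and 23 pairs were above 0. The highest were Igf2 with Ogn and Igfbp2 with Ogn, both at 0.84 with the Ogn models summed. Dcn stood apart: its r was -0.66 with Slc6a13, from -0.11 to -0.07 with Aldh1a2, Igfbp2, Ptgds and Igf2, 0.02 with Ogn and 0.26 with Lum. Rarres2 had a median r of 0.19 with the other 9 genes in the DG, from -0.15 (Dcn) to 0.56 (Igf2). In the BLA the 28 pairs had a median r of 0.23 over 12 libraries, and Rarres2 had values from -0.28 (Igfbp2) to 0.55 (Cmklr1). All values of a library share its depth and its punch, and these correlations are descriptions. Centred on the group means, the r of Rarres2 with Igf2 in the BLA was 0.08, beside 0.45 without centring, and 0.56 in the DG, beside 0.56. Leaving out the 2 libraries farthest from the median Rarres2 level gave 0.02 (BLA) and 0.23 (DG). In the BLA these were stress-high animals 7 and 19, of the group that Rarres2 was selected on. Taking out the extremes of Rarres2 narrows its range, which can lower r by itself.

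By the same measure, over 14420 other genes with a mean of at least 1 TPM in the BLA, the median r with Rarres2 was 0.06 and the 5th and 95th percentiles were -0.384 and 0.515. The 5 most like Rarres2 were both models of Mir344a-2 (r = 0.92, from at most 3 expected counts a library, with the same reads divided between them), Dph7 (0.86), Zfat (0.84) and Hkdc1 (0.84). Igf2 ranked 1243 (r = 0.45), Slc6a13 1845, Lrrc61 2992 and Dcn 3572, while Lum, Ptgds, Igfbp2 and the tested Ogn model had negative values. Cmklr1 and Aldh1a2 averaged under 1 TPM in the BLA and were not ranked. Over 13564 other genes in the DG, Igf2 ranked 441 (r = 0.56), above the 95th percentile of 0.511. There Lrrc61 ranked 1641, Ptgds 3115, Igfbp2 4630 and Dcn 10333.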

How the data were processed

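Per the labels and the methods, the authors aligned reads to Rn5 with STAR 2.6.0a and Ensembl build 75 and quantified genes with RSEM 1.3.1. The tables deposited by the authors hold for each gene and library an expected count, which RSEM estimates and which need not be whole, and TPM, recorded here as a signal value because the libraries are stacked in 1 column. The strand setting is not given in the sources used here. Groups came from the labels. Columns of other samples not used: 0.

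Library totals ranged from 12709493 to 22801247 expected counts (BLA) and from 11656439 to 19477932 (DG), and the median SE of a log2 change was 0.13 and 0.12. After rounding, edgeR's quasi-likelihood test (version 4.0.16) was run on TMM-scaled counts of genes that filterByExpr kept (minimum 10), with 3 group means per region (15230 and 14080 genes, Benjamini-Hochberg over all of them). SE and 95% intervals were derived from the quasi-likelihood F statistic. Intervals and p-values cover the spread between animals.

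TPM of 3 against 3 libraries was compared by exact permutation. Relations used log2(TPM + 1) and log2 of the summed TPM + 1, with 100000 permutations, or all of them under 10 libraries, and Benjamini-Hochberg over 10 relations (scipy 1.17.1, numpy 2.4.6). Settings that concern 1 region alone, such as a left-out library, were adjusted over its 5 lists. The analysis was tested on simulated data. Alternatives were DESeq2 1.42.0, RLE factors, no low-count filter, all libraries, the 2 groups alone, a replicate block and limma 3.58.1 on TPM. Others took the leptomeningeal level or an animal number above 20 as a covariate, or left out each library in turn. The genes and lists were chosen with earlier results of these data known. Named genes were the 10 genes, the 3 most abundant of each marker list, pathway genes with an unadjusted p under 0.05 between the stress groups and the 5 genes most like Rarres2. Hydin, Ctsk, Stra6, Rarg, Irs2, Insr, Lrrc61, Col1a1 and the region markers were added for their values or place. Promoters are RefSeq GRCr8 and were matched by symbol.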

Additional observations from a re-analysis of the deposited data

Results flagged for a closer look

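The BLA control of animal 2, which was left out, lay more than 1.5 times above every other BLA control in 3 measures. In it the leptomeningeal list summed to 120 TPM (highest other control 44.1), Ptgds had 194 TPM (125) and Aldh1a2 had 1.46 TPM (0.92).

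Some controls stood apart within their group by the gap to the nearest other control, which chance gives in about 1 of 20 groups of normally distributed values. In the BLA these were animal 35 with 44.1 TPM of the leptomeningeal list, the library whose labels conflict, and animal 28 with a low 117 TPM of the endothelial list. In the DG these were animal 17 with 47.6 TPM of the leptomeningeal list and 1.36 TPM of Aldh1a2. No explanation was tested for any of these.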

How the results depend on the processing

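The Rarres2 change between the BLA stress groups kept its direction under every alternative run, from -0.71 to -0.595, and from -0.754 to -0.595 when 1 library was left out. Its difference between the regions was 0.683 with an animal block and 0.427 to 0.731 when 1 library was left out. Rarres2 was selected on the BLA difference, and its BLA stress groups did not overlap. A change of direction was therefore unlikely from the start, and these values are no independent support.

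Adjusted calls over all genes, 0 as reported, were 1, 1 and 2 with DESeq2 in the BLA (stress-high against stress-low, stress-low against control, stress-high against control) and 4, 5 and 1 in the DG. With limma in the BLA, stress-high against stress-low gave 2 (pseudocount 0.1) and 1 (no filter), stress-low against control 1 (pseudocount 1) and 2 (pseudocount 0.1), and stress-high against control 2 (no filter). The last gave 1 with its 2 groups alone, and stress-high against control in the DG gave 1 with the leptomeningeal covariate. Leaving out 1 library gave 0 to 1 in both BLA comparisons of stress-high rats, with the 1 call in each without stress-high animal 20. Unadjusted calls between the BLA stress groups split into 152 higher and 150 lower with edgeR and 90 and 231 with limma on log2(TPM + 1).

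Changes close to 0 reversed under some alternatives. With limma, BLA Ptgds was -0.013, BLA Ogn -0.046 (pseudocount 1, and no filter) and -0.088 (pseudocount 0.1), DG Ptgds -0.006, and DG Aldh1a2 0.064 and 0.287. BLA Ogn was -0.020 with its models summed. A covariate for an animal number above 20 was chosen after seeing the data and is informed by the controls alone. With it, BLA Igfbp2 was -0.099, DG Igfbp2 -0.208 and DG Ptgds -0.793. Without reversing, it also moved DG Igf2 to -1.446, DG Lum to -1.272, DG Aldh1a2 to -1.397, DG Slc6a13 to -1.105 and BLA Igf2 to -0.928. In that fit 3 of the 9 genes tested in the DG (Ptgds, Dcn and Slc6a13) had an unadjusted edgeR p under 0.05 between the stress groups. So had 787 of all 14080 genes. Without the covariate these were 1 of the 9 and 440 of the 14080. None passed adjustment. With the leptomeningeal covariate DG Ptgds was -0.014 and DG Aldh1a2 0.133, and without a filter DG Ptgds was -0.001. DG Rarres2 in stress-low against control was -0.059 with all libraries.

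Leaving out 1 library moved the BLA changes of Dcn from -0.366 to 0.038, Lum from -0.333 to 0.992, Ptgds from -0.122 to 0.168, Aldh1a2 from -0.41 to 0.259, Igfbp2 from -0.302 to 0.579 and Ogn from -0.53 to 0.353. In the DG these were -0.414 to 0.173 for Lum, -0.092 to 0.118 for Ptgds, -0.48 to 0.932 for Aldh1a2, -0.11 to 0.909 for Igfbp2 and -0.526 to 0.323 for Igf2. Without changing sign, BLA Cmklr1 ran from -0.488 to -0.147, BLA Slc6a13 from -0.344 to -0.035 and DG Slc6a13 from -0.497 to -0.111. For DG Rarres2 they were -0.252 to 0.048 between the stress groups, -0.111 to 0.191 for stress-low and -0.17 to 0.059 for stress-high against control.

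The r of Rarres2 with the BLA leptomeningeal list was -0.098 with z-scored genes, -0.194 in controls alone, -0.002 without the 2 farthest libraries and -0.132 with the 8 leptomeningeal genes described above in its place. It was 0.121 with 7 of these, without Ptgds, and 0.276 with all 13 libraries. The ependymal r was -0.211 centred on groups and -0.237 in controls, but 0.462 with z-scored genes (permutation p = 0.129). The choroid plexus r was -0.071 with z-scores, but 0.479 centred (permutation p = 0.116) and 0.437 with all 13 libraries. The endothelial r was -0.016 centred, -0.573 in controls, -0.246 without the 2 farthest and 0.143 with z-scores. In the DG the choroid plexus r was 0.323 with z-scores. Leaving out 1 library gave -0.197 to 0.169 for the leptomeningeal, -0.383 to 0.16 for the endothelial and -0.128 to 0.389 for the mural list in the BLA, and -0.022 to 0.322 for the ependymal, -0.476 to 0.091 for the choroid plexus and -0.059 to 0.318 for the mural list in the DG. The relation in DG controls alone was not run, since there are 5. The cause of these shifts was not tested.

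Replicate numbers did not pair the libraries: the deviations of same-numbered libraries had a mean correlation of -0.005 over 13 pairs in the BLA and -0.035 over 14 in the DG, and 0 pairs were over 0.1. With the replicate block the Rarres2 change between the BLA stress groups was -0.676 and that of DG Ptgds -0.191, and all 6 comparisons had 0 adjusted calls. Low counts limit Cmklr1, Aldh1a2, Lum and Ogn most.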
